A study of Mus musculus with 37 samples.

Results

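The subunits of the oxidative phosphorylation machinery were examined in cortical astrocytes of mice with and without post-traumatic epilepsy (PTE). Members were chosen by gene symbol among protein-coding genes: the Nduf genes without the Ndufaf assembly factors and Ndufa4l2, Sdha to Sdhd, the Uqcr genes, the Cox4 to Cox8 genes, the Atp5 genes, and the mt-Nd, mt-Co, mt-Cytb and mt-Atp genes of the mitochondrial chromosome. This gave 98 members of 21975 gene identifiers in the tables, 85 of them encoded in the nucleus and 13 in mitochondrial DNA. The rule itself uses no measured value. By complex, the nuclear members comprised 36 genes of complex I, 4 of complex II, 8 of complex III, 19 of complex IV and 18 of complex V, where Ndufa4 was counted with complex IV. The mitochondrially encoded members comprised 7 genes of complex I, 1 of complex III, 3 of complex IV and 2 of complex V.

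RNA-Seq was performed on astrocytes that were bound to ACSA-2 beads from ipsilateral and contralateral cortex, 4 months after a sham operation or an injury by controlled cortical impact (CCI). The labels give the genotype of all mice as wild type with the name CD31, followed by Injured or Sham, and the study's methods describe CD1 males. CCI was made through a craniectomy over the right parietal bone, shams received the craniectomy and the electrode implantation without impact, and electrodes for seizure recording were placed later in all mice. Injured mice were labelled PTE+ or PTE- from seizures. Ipsilateral cortex was represented by 5 sham, 10 PTE- and 4 PTE+ libraries, and contralateral cortex by 5 sham, 9 PTE- and 4 PTE+ libraries. In all, 37 libraries came from 20 mice, and 17 mice gave both hemispheres (5 sham, 9 PTE-, 3 PTE+). Each library is 1 mouse and 1 hemisphere, so the contralateral cortex of an injured mouse is not an uninjured animal, and the PTE label is not randomized.

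Oxidative phosphorylation passes electrons from NADH (complex I) and succinate (complex II) through complex III to oxygen at complex IV, while protons are pumped across the inner mitochondrial membrane and drive ATP synthase, complex V. Mitochondrial DNA encodes a small hydrophobic core of complexes I, III, IV and V, and every other subunit is imported from the cytosol, so each of these complexes needs transcripts from both genomes. Complex II is wholly nuclear. Astrocytes are known for strong glycolysis, and they also respire and oxidize fatty acids and glutamate.

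Short stretches of promoter are shown first because shared promoter elements are what is best known to connect the nuclear members, which lie on many chromosomes. RefSeq windows from 250 bases before to 50 bases after the start site were matched for 68 of 85 nuclear members, in 73 windows of 300 bases, with 32851 windows for all genes (build GRCm38.p6). NRF1 is a transcription factor known for binding promoters of respiratory chain genes, and YY1 is another factor known at such promoters. The letters GCATGCGC, the core of the NRF1 motif, occurred on either strand in 13.7% of member windows and 2.71% of all windows. One window with it is printed from each complex, 5′ to 3′ on the gene's strand, with the motif in capitals.
Ndufa8, chr2:36049329-36049356, minus strand: cgctggagacGCATGCGCagatggtacc
Sdhb, chr4:140961207-140961234, plus strand: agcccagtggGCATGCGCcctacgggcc
Uqcrc1, chr9:108936670-108936697, plus strand: tccgctctgcGCATGCGCagcgcggctc
Cox6a1, chr5:115349101-115349128, minus strand: ggaacggggcGCATGCGCgctctcgctc
Atp5l, chr9:44920965-44920992, minus strand: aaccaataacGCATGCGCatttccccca

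The core of the YY1 motif, AAGATGGC, occurred in 12.3% of member windows and 2.75% of all windows. It is printed for 4 members, among them Ndufb8 and Ndufs6, which return in the hemisphere comparisons.
Ndufb8, chr19:44555393-44555414, minus strand: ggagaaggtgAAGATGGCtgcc
Ndufs6, chr13:73328433-73328459, minus strand: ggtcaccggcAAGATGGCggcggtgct
Ndufa9, chr6:126849098-126849125, minus strand: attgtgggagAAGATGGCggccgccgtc
Atp5j, chr16:84835047-84835074, minus strand: aagtgtaggaAAGATGGCggagtcttag

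In Ndufb8, Ndufs6 and Ndufa9 the first base of AAGATGGC lay 39, 34 and 30 bases after the RefSeq start site, and in Ndufa8 the NRF1 letters began 8 bases before it. Every AAGATGGC match in a member was on the gene's strand. All but the one in Atp5j, which lay before the start site, began 23 to 39 bases after it, within the transcribed part. AAGATGGC contains ATG, the letters of a start codon. Whether these matches lie at translation starts was not tested. The ETS core CCGGAAGT was found in 6.85% of member windows against 3.89% of all, and the ERR core TCAAGGTCA in 2.74% against 0.423%. The general promoter elements were about as frequent as elsewhere: the GC box GGGCGG was in 38.4% against 35.7%, CCAAT in 41.1% against 37.4%, and TATAAA in 10.96% against 13.6%. These 7 letter strings were searched on both strands. GCATGCGC can overlap its own reverse complement GCGCATGC, and the others were counted without regard to overlap. A match is a match of letters and not a measured binding site.

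The values are TPM, a length-scaled transcript abundance in which a gene's reads are divided by its transcript length and scaled to a fixed total per library. Levels of different genes can thus be set side by side, but the read depth behind each library is not kept and is unknown here. Because every library sums to the same total, a level is a share, and fewer cells of a type cannot be told apart from less RNA per cell. All 8 astrocyte markers were above 0 in every library, with a summed level of 5216 to 10418 TPM. The purified cells also held transcripts of others: the summed markers of oligodendrocytes ranged from 195 to 4111 TPM, of mural cells from 732 to 4756, of endothelial cells from 113 to 863, of neurons from 36.8 to 619 and of microglia from 26.1 to 313. One ipsilateral PTE- library, 9_14, stood apart with 10727 genes above 0 TPM against 15599 to 18534 in the others, and it had the highest mural sum. Results that rest on it are given with and without it.

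The 13 mitochondrially encoded members together held more of the summed TPM than the 85 nuclear members on average in every group. Their summed share of all TPM in ipsilateral cortex was 6.32% ± 2.96 (SD, n = 5) in sham, 5.45% ± 2.51 (n = 10) in PTE- and 5.05% ± 1.09 (n = 4) in PTE+ mice. In contralateral cortex it was 6.10% ± 2.65 (n = 5), 5.97% ± 2.97 (n = 9) and 5.66% ± 1.84 (n = 4). The nuclear members held 4.57% ± 0.97, 4.22% ± 0.49 and 4.25% ± 0.63 in ipsilateral sham, PTE- and PTE+ libraries, and 4.2% ± 0.51, 4.47% ± 0.60 and 4.77% ± 0.71 in contralateral ones. The mean ratio of nuclear to mitochondrial TPM lay between 0.81 and 0.92 in the 6 groups.

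Single libraries differed far more than group means. The mitochondrial share in ipsilateral sham cortex was 1.80% in mouse 9_11, 5.32% in 8_15, 7.27% in 9_9, 7.50% in 8_16 and 9.68% in 9_10. In ipsilateral PTE+ cortex it was 4.35% in 9_19, 4.44% in 9_17, 4.73% in 9_18 and 6.66% in 8_10, and in ipsilateral PTE- cortex it ran from 2.67% through a median of 4.44% to 9.85%. Contralateral sham libraries ran 3.17%, 4.54%, 5.83%, 6.79% and 10.2%, contralateral PTE+ libraries 3.49%, 4.92%, 6.53% and 7.69%, and contralateral PTE- libraries from 2.35% through a median of 4.94% to 11.4%. Every group overlapped every other, and the 5 ipsilateral shams alone spanned 1.80% to 9.68%. The nuclear share kept to 3.13% to 5.78% over all 37 libraries.

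**Figure D1:**
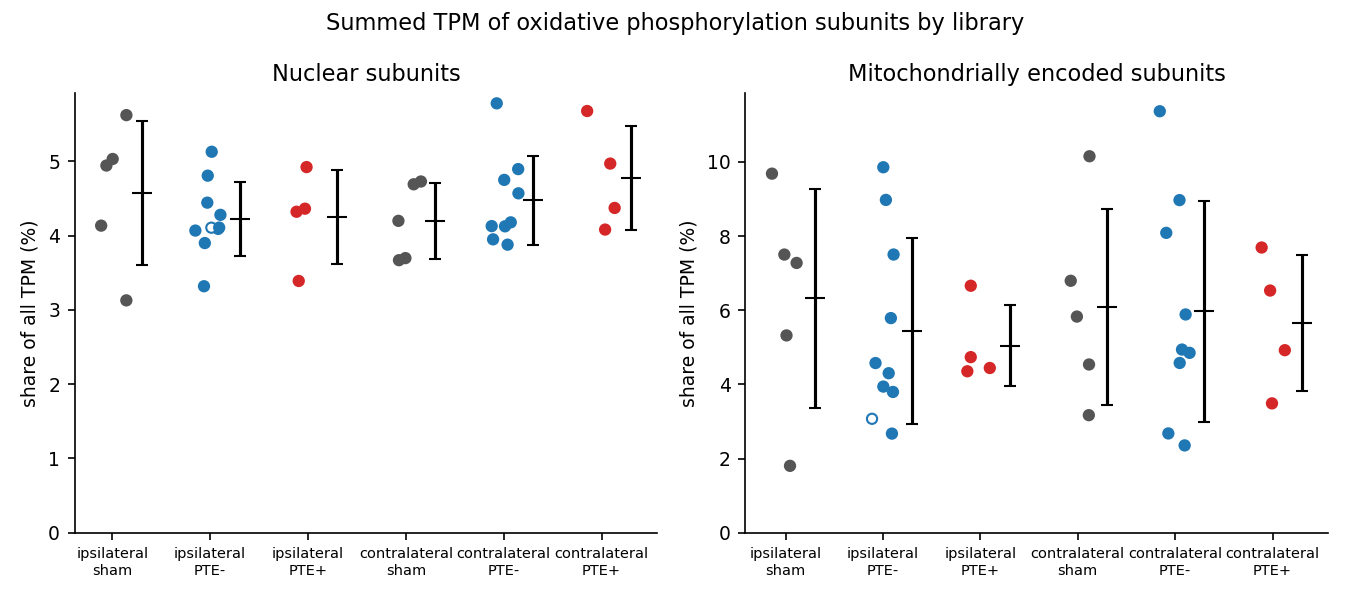
Each point is 1 library; the vertical axes give the share of all TPM (%) held by the 85 nuclear members and by the 13 mitochondrially encoded members in each group of mice and hemisphere, with black bars at the mean ± SD. The 6 groups overlap in both panels, and the mitochondrial share spans 1.80% to 11.4% while the nuclear share spans 3.13% to 5.78%.

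Within the mitochondrial set the order of levels was largely fixed. The highest was mt-Co3, a core subunit of cytochrome c oxidase, at a median of 12301 TPM over 37 libraries and ranking first in 31 of them. It was followed by mt-Atp6, the proton channel subunit of ATP synthase, at a median of 9310 TPM and first in the other 6. The catalytic subunit mt-Co1 had a median of 5886 TPM, mt-Atp8 5445, mt-Co2 5366, mt-Cytb 4027 and mt-Nd1 3514 TPM. The other complex I genes were lower, at 1521 TPM for mt-Nd4l, 1376 for mt-Nd3, 1322 for mt-Nd4, 813 for mt-Nd2, 502 for mt-Nd5 and 472 for mt-Nd6. Neighbours in this order that changed places often were mt-Atp8 and mt-Co2 (mt-Atp8 higher in 14 of 37 libraries), mt-Nd3 and mt-Nd4 (15 of 37), mt-Cytb and mt-Nd1 (24 of 37) and mt-Nd5 and mt-Nd6 (26 of 37). By contrast mt-Atp6 exceeded mt-Co1, mt-Nd1 exceeded mt-Nd4l, mt-Nd4 exceeded mt-Nd2 and mt-Nd2 exceeded mt-Nd5 in all 37.

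Several of these genes share bases on the mitochondrial chromosome, so their reads could be divided between neighbours. By the GENCODE annotation of GRCm38, mt-Atp8 (chrM 7766 to 7969) overlaps mt-Atp6 (7927 to 8607), which ends at the first base of mt-Co3 (8607 to 9390). Likewise mt-Nd4l (9877 to 10173) overlaps mt-Nd4 (10167 to 11544), and the end of mt-Nd5 (11742 to 13565) overlaps mt-Nd6 (13552 to 14070), the only member on the minus strand of this chromosome. The library kit does not mark strand, so reads in that last overlap cannot be assigned to mt-Nd5 or mt-Nd6 by strand.

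The nuclear members covered a wide range of levels. In complex IV, Cox8a had a median of 2626 TPM and was the highest nuclear member in 27 of 37 libraries, with Cox6a1 at 2044 and Cox4i1 at 1600 TPM. In complex V, Atp5b, the catalytic beta subunit, had a median of 1899 TPM and was highest in the other 10 libraries, whereas Atp5s was at a mean of 45.0 TPM. In complex III, mean levels ran from 210 TPM for Uqcrc2 to 1540 TPM for Uqcr11. Complex I means ran from 92.0 TPM for Ndufb4 to 912 TPM for Ndufb9, and those of complex II from 124 TPM for Sdhc to 508 TPM for Sdhb, the iron-sulfur subunit. Sdha, the flavoprotein that holds the active site of complex II, was at 347 ± 68.0 TPM (SD, n = 5) in ipsilateral and 339 ± 78.2 (n = 5) in contralateral sham cortex. Many small nuclear members have processed pseudogenes of near-identical sequence, and how the authors' counting divided reads with them is not known here.

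Complex IV subunits that exist as tissue isoforms were dominated by the common form. Cox4i2, known from lung and from pericytes, made up 1.09% to 6.92% (median 2.59%) of the summed TPM of Cox4i1 and Cox4i2. Cox7a1, the heart and muscle form, made up a median of 3.32% of its pair with Cox7a2, Cox7b2 4.67% of its pair with Cox7b, and Cox6b2, the testis form, 5.63% of its pair with Cox6b1. The muscle forms Cox6a2 and Cox8b stood at medians of 0.140% and 0.0790% of their pairs. In no library did the rarer form exceed the common one. Cox4i2 ran with the summed mural markers across libraries (r = 0.71, rho = 0.65, r without the 2 farthest libraries 0.61 in 19 ipsilateral libraries; 0.65, 0.51 and 0.42 in 18 contralateral ones), and the part of mural RNA in its level was not tested. Cox8b, Cox8c, Cox6a2 and the second of 2 identifiers of Atp5o stayed at or below the low-value filter (mean above 5 TPM in at least 1 group) in the group comparisons, so 81 nuclear and 13 mitochondrially encoded members were tested there. Cox6a2 passed the filter only in the hemisphere comparison of PTE+ and PTE- mice.

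The mitochondrially encoded members moved between libraries as one block. On the log2(TPM + 1) scale, after the group means were removed, the SD of a mitochondrially encoded member had a median of 0.71 in ipsilateral and 0.70 in contralateral cortex. The nuclear members had medians of 0.28 and 0.24, and all genes tested 0.44 and 0.32. Without library 9_14 the ipsilateral medians were 0.70, 0.28 and 0.33. Each of the 13 mitochondrially encoded members ran with the mean of the other 12 (median r 0.95 ipsilateral and 0.96 contralateral, lowest 0.87 and 0.89). These points share libraries and the fixed TPM total, so the coefficients are descriptions. The smallest spread within the set was that of mt-Nd5 (ipsilateral, 0.59) and mt-Atp8 (contralateral, 0.57), and the largest were those of mt-Nd3 and mt-Nd2 (0.93 and 0.86 ipsilateral, 0.99 and 1.03 contralateral).

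The nuclear members were less uniform. Of 81 members, 59 in ipsilateral and 56 in contralateral cortex had r above 0.5 with the mean of the other nuclear members. Several members, most of them large catalytic or core proteins, ran the other way in both hemispheres: Ndufs1 (r = -0.78 and -0.52), Sdha (-0.57 and -0.53), Atp5a1 (-0.43 and -0.20), Uqcrc1 (-0.37 and -0.06), Ndufv1 (-0.37 and -0.29) and Ndufa10 (-0.22 and -0.30). Ndufs1 and Ndufv1 carry iron-sulfur and flavin cofactors of complex I, Atp5a1 is the alpha subunit of ATP synthase, and Uqcrc1 is a core protein of complex III, while Ndufa10 is an accessory subunit. At the other end, Cox7a2 had r of 0.94 and 0.93. The 7 core subunits of complex I had a median SD of 0.16 ipsilateral and 0.18 contralateral and a median r of 0.22 and 0.24, against SDs of 0.28 and 0.25 and r of 0.84 and 0.74 in its other 29 nuclear subunits, a division made after the values were seen. Without 9_14 the ipsilateral median r was 0.39 and 0.88.

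The spread of a nuclear member went with the length of its transcript and not with its level. Across the 81 nuclear members, the SD fell with the median length of annotated transcripts (Spearman's rho = -0.56 ipsilateral, -0.47 contralateral, and -0.58 ipsilateral without 9_14), while rho with the level was -0.06 and 0.06. These are correlations across genes, which are not independent replicates. The 21 members with the shortest transcripts (321.5 to 544 bases) had a median SD of 0.37 and 0.31, and the 21 with the longest (977 to 2675.5 bases) had 0.19 and 0.19. Short genes with a wide spread were Atp5e (0.61 and 0.63), the epsilon subunit of ATP synthase, and Cox6a1 (0.62 and 0.54). Cox7b was an exception among long transcripts at 0.61 and 0.63, while Atp5b had a narrow spread at 0.13 and 0.14. Whether the wide spread of short transcripts arose in the animals or in library preparation was not tested.

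**Figure D2:**
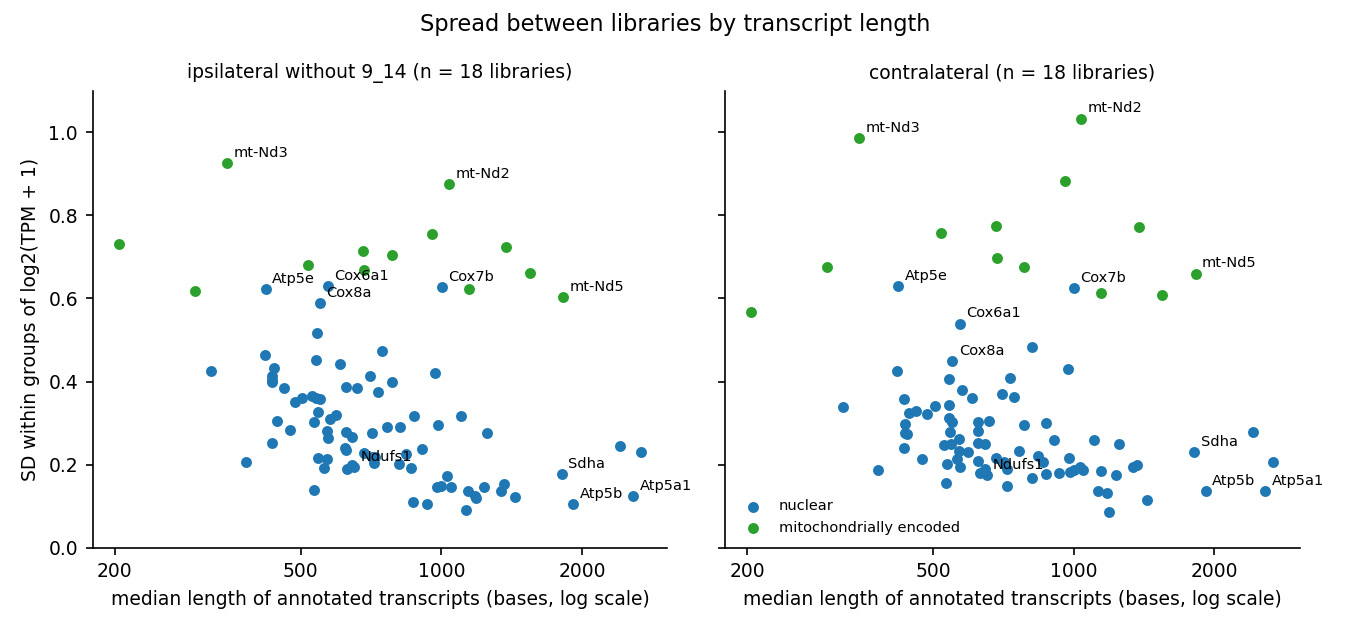
For each member the vertical axis gives the SD within groups of log2(TPM + 1) and the horizontal axis, on a log scale, the median length in bases of its annotated transcripts, for ipsilateral libraries without 9_14 and for contralateral libraries. Among the 81 nuclear members the spread declines with length (rho = -0.58 and -0.47), and the 13 mitochondrially encoded members lie above most nuclear members of like length.

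Nuclear and mitochondrial shares were related across ipsilateral libraries (r = 0.70, rho = 0.78, r without the 2 farthest libraries 0.79, n = 19) and less so across contralateral ones (r = 0.29, rho = 0.40, without 2 0.51, n = 18). Mouse names begin with 8 or 9, which the labels do not explain. Within those beginning with 8, r was 0.38 ipsilateral (n = 7) and 0.50 contralateral (n = 8), and within those beginning with 9 it was 0.60 (n = 12) and 0.18 (n = 10). Both shares moved with other transcript classes. The summed TPM of cytosolic ribosomal protein genes had r of 0.93 ipsilateral and 0.88 contralateral with the nuclear share, and 0.84 and 0.58 with the mitochondrial share. The summed astrocyte markers had r of -0.77 and -0.61 with the nuclear share and -0.66 and -0.29 with the mitochondrial share, and the summed neuronal markers had 0.76 and 0.51 with the mitochondrial share. The oligodendrocyte sum had 0.76 and 0.47 and the mural sum -0.62 and -0.43 with the mitochondrial share. The part of cell makeup in these shares was not tested.

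**Figure D3:**
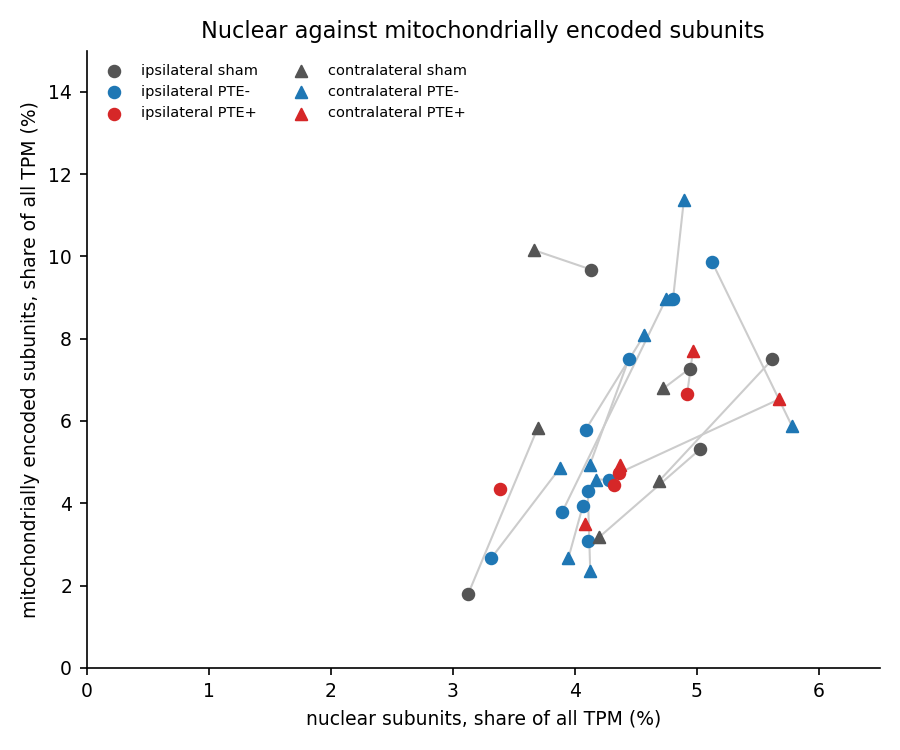
Each point is 1 of 37 libraries, with the share of all TPM (%) of the nuclear members on the horizontal axis and that of the mitochondrially encoded members on the vertical axis, coloured by outcome and shaped by hemisphere. Libraries of the 3 outcomes are intermingled, and the relation is closer in ipsilateral (r = 0.70) than in contralateral (r = 0.29) libraries.

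Both hemispheres of a mouse resembled each other only in part. Over 17 mice the mitochondrial share of one hemisphere had r = 0.47 (rho = 0.41) with that of the other, and the nuclear share r = 0.56 (rho = 0.59). The mitochondrial share was higher in ipsilateral cortex in 3 of 5 sham, 4 of 9 PTE- and 0 of 3 PTE+ mice, and the nuclear share in 4 of 5, 3 of 9 and 0 of 3.

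Injury was compared with sham in ipsilateral cortex to ask whether the subunit transcripts differ near the lesion 4 months later. They did not pass the test: by limma on log2(TPM + 1), with a call at an unadjusted p under 0.05 and a fold of at least 1.2, 0 of 94 members were called in 14 injured against 5 sham libraries, and 0 had an unadjusted p under 0.05, where 1.62% of all 10434 genes tested were called. The median difference was -0.06 over 81 nuclear members and -0.13 over 13 mitochondrially encoded members, against -0.01 over all genes. All 13 mitochondrially encoded members and all 16 complex IV members had negative differences (complex IV median -0.18), which is a count of genes that move together and not of separate results. Cox7c had the lowest unadjusted p of any member, 0.121 (difference -0.34, limma adjusted p = 0.9997).

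The intervals were wide for the mitochondrial genome. mt-Co3 was at 12804 ± 6048 TPM (SD, n = 14) in injured and 14491 ± 5969 (n = 5) in sham libraries, a difference of -0.16 (95% interval -0.89 to 0.57). For the nuclear members the intervals were narrower and differed with the gene. Atp5b was at 1865 ± 167 against 1864 ± 155, a difference of 0.00 (-0.16 to 0.16). Cox4i1 was at 1494 ± 408 against 1777 ± 634 TPM (-0.20, -0.66 to 0.25). In the same comparison the astrocyte marker Gfap rose from 273 ± 74.0 to 653 ± 241 TPM (difference 1.18, exact permutation p = 0.00198). Of 8 astrocyte markers 2 were called (list median 0.10). The oligodendrocyte markers Mog, Mag and Opalin fell (3 of 6 tested, list median -1.36, exact permutation p = 0.0224, 0.0353 and 0.0567). The part of oligodendrocyte RNA in the members' differences was not tested.

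The ipsilateral result rested on 1 sham library. Without sham 9_11, which had the lowest mitochondrial share of all, 12 members were called, all lower in injured mice, where 4.0% of all genes were called (332 higher, 83 lower). Among them were Cox6a1 (-0.59), Cox7c (-0.57), Cox8a (-0.56), Cox6c (-0.49), Cox4i1 (-0.46), mt-Atp8 (-0.69) and mt-Atp6 (-0.58). With limma's array weights, which give less weight to libraries that lie far from their group, 13 were called, all lower, where 8.08% of all genes were called (664 higher, 179 lower). In sham 9_11 the oligodendrocyte sum was the lowest of all libraries, 195 TPM, and the astrocyte sum the highest, 10418 TPM. Within the mouse names beginning with 8 (5 injured, 2 sham) the median of the mitochondrial members was 0.24, and within those beginning with 9 (9 injured, 3 sham) it was -0.28.

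PTE+ was compared with PTE- in ipsilateral cortex to ask whether the transcripts differ with seizures among injured mice. Of 94 members 0 were called in 4 PTE+ against 10 PTE- libraries, 0 had an unadjusted p under 0.05 by limma, and 0.573% of 10473 genes tested were called. The nuclear median was 0.02 and the mitochondrial median 0.01, against 0.12 over all genes, and with libraries centred on their medians both turned to -0.05 and -0.07. Ndufa6, an accessory subunit of complex I, was at 302 ± 22.7 TPM (SD, n = 4) in PTE+ and 347 ± 38.7 (n = 10) in PTE- mice (-0.19, -0.40 to 0.02, exact permutation p = 0.0559), and it was called only with median centring (-0.27). The study tested raw counts with DESeq2 and lists Ndufa6 among the genes lower in PTE+ mice in both hemispheres. The limma fit on TPM used here is a different test. mt-Co3 was at 12708 ± 3335 TPM (SD, n = 4) in PTE+ against 12843 ± 7008 (n = 10) in PTE- mice (0.14, -0.66 to 0.93). In the same comparison 6 of 9 tested genes of a fixed list of early response and heat shock genes, among them Fos, Egr1 and Junb, fell in PTE+ libraries. What lowered them was not tested. Of 15 glycolysis genes 0 were called.

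In contralateral cortex, injured and sham mice were compared to ask whether subunits differ in the hemisphere opposite the lesion. Of 94 members 0 were called in 13 injured against 5 sham libraries, where 4.05% of 10556 genes tested were called. The nuclear members had a median difference of 0.10 (62 of 81 positive) and the mitochondrially encoded members -0.15 (2 of 13 positive), while all genes had -0.07. When libraries were centred on their medians the median of all genes moved by 0.10 and the nuclear median was 0.20. Uqcrc1 was at 862 ± 95.2 TPM (SD, n = 13) in injured and 735 ± 67.6 (n = 5) in sham libraries. Sham libraries ran from 664 to 811 TPM and injured ones from 727 to 1065, so they overlapped, and the difference of 0.23 (0.04 to 0.42, limma p = 0.0224, adjusted p = 0.978, exact permutation p = 0.0125) lay below the 1.2-fold threshold. Ndufa10 also had an unadjusted limma p under 0.05 (0.0339, difference 0.17). Cox7a1 was at 15.05 ± 2.73 TPM against 18.8 ± 4.35 in sham (-0.30, -0.61 to 0.01).

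mt-Atp8 had the most negative difference of any member here, at 5744 ± 2148 TPM (SD, n = 13) against 7500 ± 2771 (n = 5), -0.42 with an interval of -0.98 to 0.15. mt-Co3 was at 13607 ± 5875 against 12514 ± 4674 TPM (0.07, -0.58 to 0.73). Within mouse names the mitochondrial median took opposite signs, 0.58 in names beginning with 8 (6 injured, 2 sham) and -0.58 in names beginning with 9 (7 injured, 3 sham).

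PTE+ and PTE- mice were also compared in contralateral cortex, and here 1 of 94 members was called, where 2.79% of 10423 genes tested were called. This was Cox6b2 (ENSMUSG00000051811, chr7 4751792 to 4753094, minus strand), the testis form of subunit 6b of cytochrome c oxidase. It was at 27.97, 29.59, 33.89 and 39.75 TPM in the 4 PTE+ libraries and ran from 30.2 through a median of 47.8 to 60.1 TPM in the 9 PTE- libraries. The groups overlapped, with the lowest PTE- library between PTE+ libraries. The means were 32.8 ± 5.26 (SD, n = 4) and 47.2 ± 9.70 (n = 9), and Cox6b2 fell by 0.50 on the log2 scale (95% interval -0.85 to -0.14, limma p = 0.00928, adjusted p = 0.999, exact permutation p = 0.0154). It stood at 33.6 to 64.2 TPM in the 5 contralateral shams. Within the mouse names beginning with 8 the difference was -0.34 (2 PTE+, 4 PTE-), and within those beginning with 9 it was -0.61 (2 PTE+, 5 PTE-).

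In ipsilateral cortex Cox6b2 was at 24.3, 48.1, 49.5 and 55.3 TPM in PTE+ libraries. It was listed at 0 in PTE- library 9_14 and ran from 42.4 to 85.3 TPM in the other 9. With 9_14 the difference was 0.11 (-1.76 to 1.98) and without it -0.48 (limma p = 0.0315, unadjusted), which was called. Its PTE difference did not pass the test of a change between hemispheres (-0.15, 95% interval -0.57 to 0.27, limma p = 0.452). The common form Cox6b1 was not called in either hemisphere.

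Of the 16 complex IV members, Cox6b2 included, 12 had positive differences in contralateral PTE+ libraries without passing the test and 4 negative ones, with a median of 0.18 against 0.05 over all genes. Cox8a was at 3491 ± 776 TPM (SD, n = 4) in PTE+ and 2749 ± 1000 (n = 9) in PTE- mice (0.39, -0.14 to 0.93), Cox6a1 at 2628 ± 755 against 2088 ± 877 (0.39, -0.23 to 1.01) and Cox6c at 1228 ± 336 against 948 ± 217 (0.37, -0.05 to 0.79). Ndufa6 was at 319 ± 37.2 against 353 ± 29.2 TPM (-0.15, -0.37 to 0.07). With array weights 10 members were called, 8 higher and 2 lower, where 7.94% of all genes were called (397 higher, 431 lower). Over all nuclear members the median was 0.03, which turned to -0.03 when libraries were centred on their medians, and over the mitochondrially encoded members it was -0.06, which turned to 0.24 with array weights. The endothelial markers Tek and Pecam1 rose in the same PTE+ libraries (2 of 5 tested, list median 0.76, exact permutation p = 0.0434 and 0.0182). So did the neuronal marker Stmn2 (1 of 7, list median 0.64, exact permutation p = 0.0769). The part of these markers' cells in the members' differences was not tested.

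**Figure D4:**
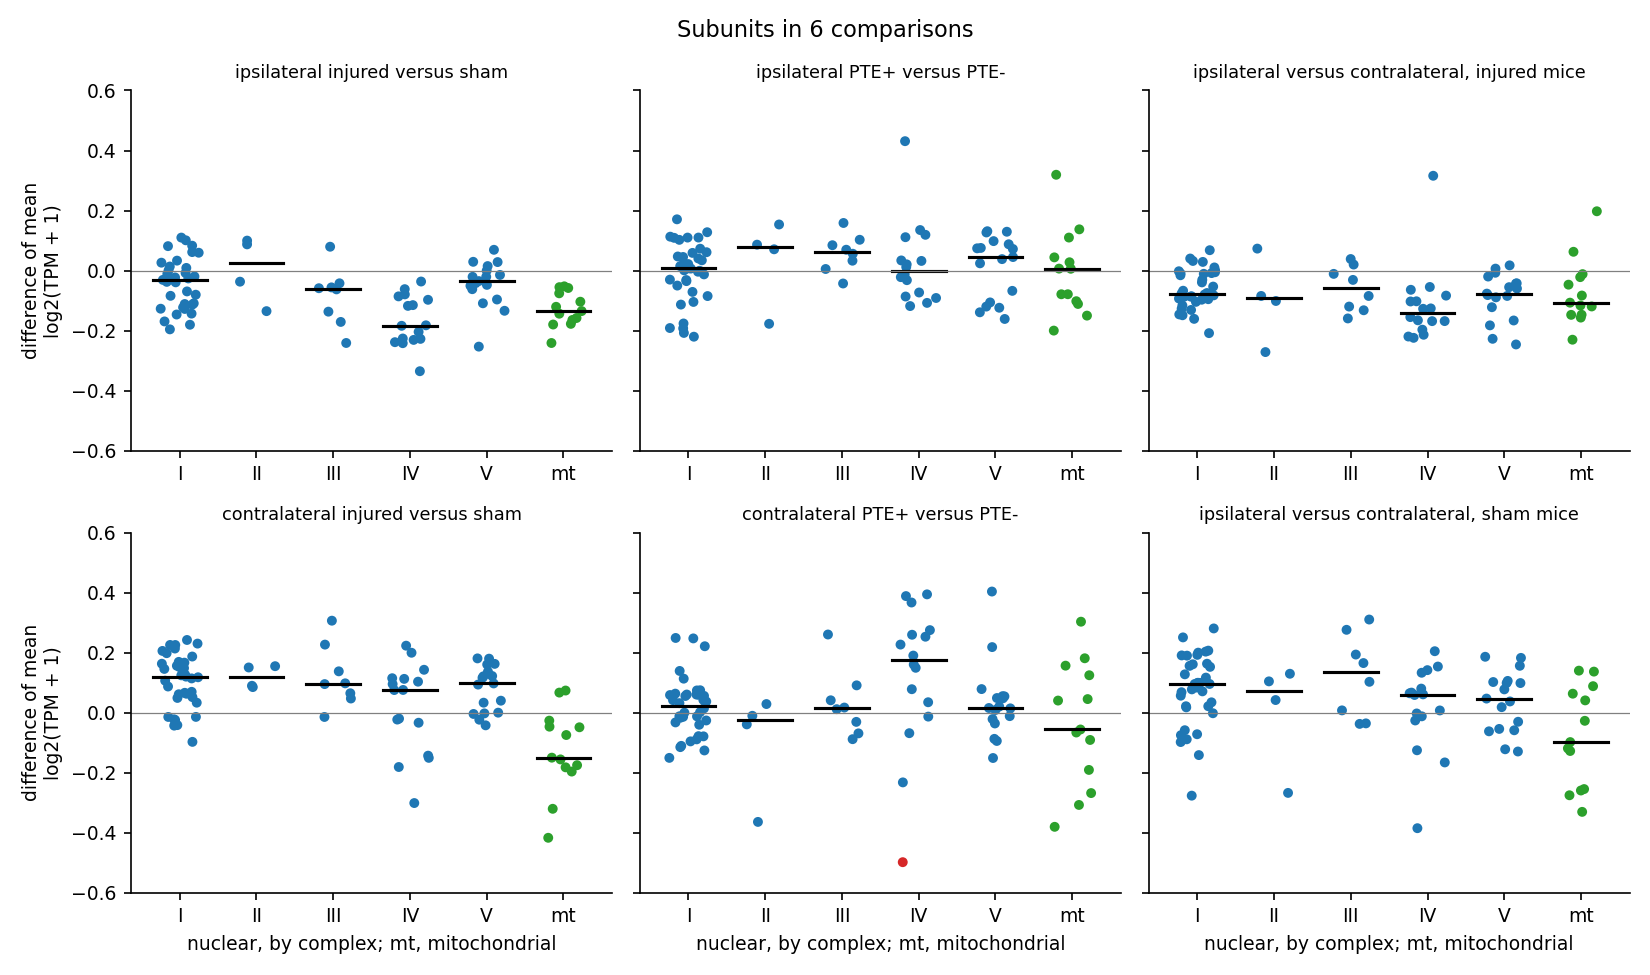
Each point is 1 tested member in 1 of 6 comparisons; the vertical axis gives the difference of mean log2(TPM + 1), first group minus second, for nuclear members by complex (I to V) and for mitochondrially encoded members (mt), with black bars at the median and the called member in red. Calls in the picture are those without the mouse as a block, and the 1 called member is Cox6b2 at -0.50 in contralateral PTE+ against PTE- libraries.

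Hemispheres were compared within mice to ask whether the side of the lesion matters beyond differences between animals. In 12 injured mice with both hemispheres, 0 of 94 members were called without regard to pairing (2.71% of 10350 genes), and with the mouse as a block 1 was called (4.51% of the same genes). By the fit with the block, 13 of 81 nuclear members had an unadjusted p under 0.05, as did 981 of the 10350 genes. Only 1 of these members passed the 1.2-fold threshold, and 0 had an adjusted p under 0.05. Of the 13 mitochondrially encoded members 0 had an unadjusted p under 0.05. The nuclear members had a median of -0.08, with 69 of 81 lower in ipsilateral cortex, and the mitochondrially encoded members -0.11, with 11 of 13 lower, against -0.01 over all genes. The called member was again Cox6b2, which was higher in ipsilateral cortex in 10 of 12 injured mice. Its means were 55.6 ± 15.4 and 43.9 ± 10.5 TPM (SD, n = 12 each), a difference of 0.32 (SE 0.08, 95% interval 0.14 to 0.49, limma with block p = 0.00175, adjusted p = 0.203, exact sign-flip permutation p = 0.00488). In the same mice, by the fit without the block, the oligodendrocyte markers Mbp, Mobp and Mog were lower in ipsilateral cortex (3 of 6 tested, list median -0.64). So were the mural markers Rgs5 and Acta2 (2 of 7, list median 0.04) and the endothelial marker Pecam1 (1 of 5, list median -0.32). The astrocyte markers Gfap (667 ± 197 against 300 ± 121 TPM) and Aqp4 were higher (2 of 8, list median 0.03). Their part in the members' differences was not tested.

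In 5 sham mice 0 members were called without the block (1.19% of 10601 genes) and 3 with it (6.91%). These were Ndufs6, Uqcr11 and Uqcrq, each higher in ipsilateral cortex in 4 of 5 mice. Ndufs6, an accessory subunit of complex I, was at 353 ± 64.5 against 288 ± 36.3 TPM (SD, n = 5 each; difference 0.28, 0.05 to 0.51 with the block). Uqcr11, a small subunit of complex III, was at 1601 ± 336 against 1288 ± 272 TPM (0.31, 0.02 to 0.60), and Uqcrq, which lies next to cytochrome b in complex III, at 1007 ± 290 against 823 ± 225 TPM (0.28, 0.01 to 0.54). The adjusted limma p was 0.673 for each, and the exact sign-flip test over 5 mice cannot go below 0.0625. In these mice most genes went the other way, with a median of -0.09 over all genes against 0.08 over the nuclear and -0.10 over the mitochondrially encoded members; with libraries centred on their medians these became 0.03, 0.20 and 0.02.

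The difference between those hemisphere contrasts was then tested directly, as the injury effect in ipsilateral minus that in contralateral cortex over 12 injured and 5 sham mice. By limma 5 of 94 members were called, or about the share of all genes (6.5% of 10695). The nuclear median was -0.15, with 75 of 81 negative, against 0.08 over all genes and -0.01 over the mitochondrially encoded members. Centring the libraries moved the median of all genes from 0.08 to -0.04 and turned 631 higher and 64 lower calls among all genes into 224 and 382, so the following values are relative to a background that itself depends on scaling.

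The member with the smallest p was Ndufa8 (ENSMUSG00000026895, chr2 36036326 to 36049406, minus strand), an accessory subunit of complex I. Ipsilateral minus contralateral log2(TPM + 1) was 0.05, 0.09, 0.12, 0.22 and 0.30 in the 5 sham mice, positive in each. In the 12 injured mice it ran from -0.46 through a median of -0.13 to 0.09 and was positive in 2. The groups overlapped only at the values between 0.05 and 0.09. The difference of means was -0.29 (SE 0.09, 95% interval -0.47 to -0.10, limma p = 0.00420, adjusted p = 0.569, exact permutation p = 0.00194). PTE+ and PTE- mice did not differ in it beyond their spread (-0.01, -0.27 to 0.25).

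Ndufs6 (ENSMUSG00000021606, chr13 73319838 to 73328542, minus strand) differed by -0.29 (-0.51 to -0.07, exact permutation p = 0.0115). Its hemisphere difference was -0.06, 0.23, 0.36, 0.43 and 0.45 in shams and -0.36 to 0.19 in injured mice, so 4 of 5 shams lay above every injured mouse. Ndufb8 (-0.35, -0.68 to -0.01, exact permutation p = 0.0601) and Uqcrq (-0.29, -0.56 to -0.02, exact permutation p = 0.0493) were called in the same direction with more overlap: Ndufb8 ran from -0.32 to 0.77 in shams and from -0.47 to 0.52 in injured mice. Cox6b2 was called in the opposite direction (0.33, 0.00 to 0.65, exact permutation p = 0.0580), at -0.43 to 0.29 in shams and -0.20 to 0.83 in injured mice. For Ndufs6 and Uqcrq the mean hemisphere difference was 0.28 each in shams and -0.01 each in injured mice. In injured mice Ndufs6 was higher ipsilaterally in 6 of 12 and Uqcrq in 5 of 12. The same 5 shams gave the calls of both genes between sham hemispheres, so these are not separate results. Ndufb8 and Ndufs6 hold the AAGATGGC letters printed above and Ndufa8 the GCATGCGC letters, as do other members that were not called.

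This count depended on single mice. Without sham 9_11 there were 22 called members (10.3% of all genes), without PTE+ 9_17 there were 9 (8.04%) and without sham 9_9 there were 8 (7.24%), while leaving out sham 8_15, sham 9_10 or PTE+ 9_18 left 1. With libraries centred on their medians 27 were called, all lower (5.67% of all genes).

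The same test for PTE+ against PTE- mice, with 3 and 9 mice, called Cox6c and Cox6a2 (3.09% of 10683 genes). Cox6c, a small subunit of complex IV, was lower in ipsilateral than in contralateral cortex in all 3 PTE+ mice (-0.82, -0.36 and -0.10) and ran from -0.40 to 0.57 in the 9 PTE- mice. The difference of means was -0.40 (-0.79 to -0.01, limma p = 0.0447, adjusted p = 0.995, exact permutation p = 0.0864, where the smallest possible p is 0.00455). Cox6a2 passed the low-value filter only through its contralateral PTE+ libraries (4.28, 6.33 and 7.19 TPM, against 3.72, 1.84 and 0.96 TPM on the other side of the same mice), so its call is no support for a difference. The nuclear median was 0.02, the mitochondrial median -0.20 and that of all genes 0.00. Of 82 tested cytosolic ribosomal protein genes 12 were called, all lower, in the same comparison.

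**Figure D5:**
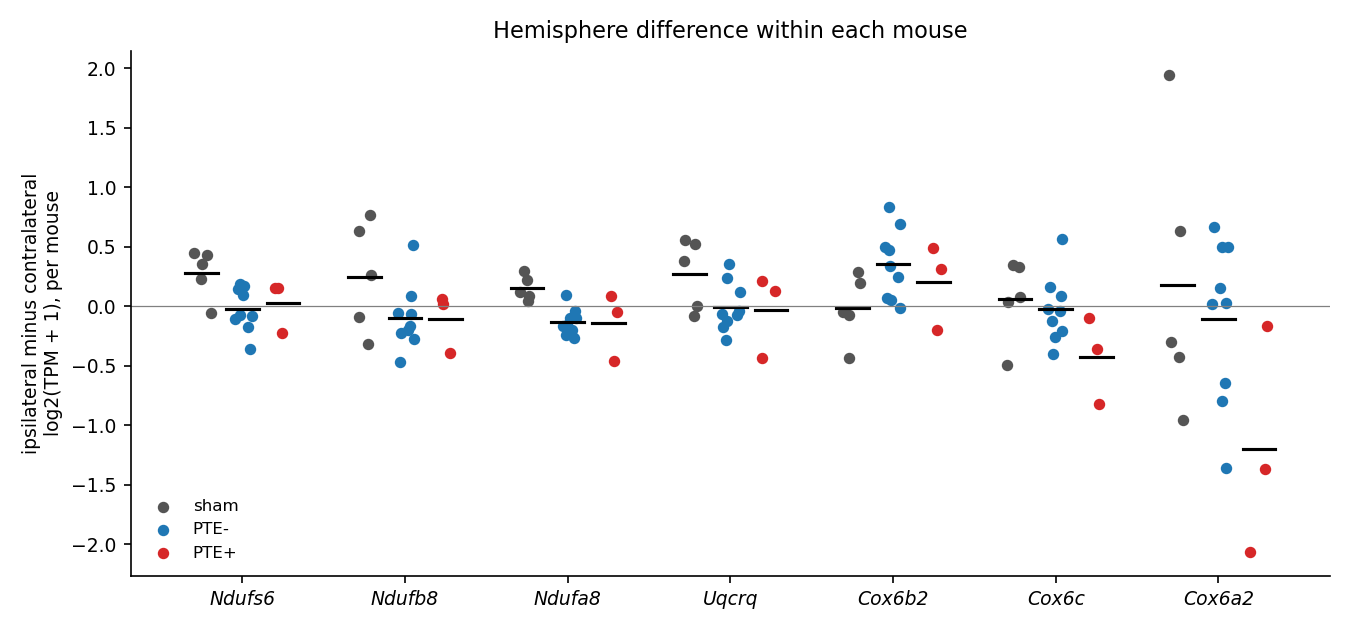
Each point is 1 mouse; the vertical axis gives ipsilateral minus contralateral log2(TPM + 1) for the 7 members called in either test of a hemisphere difference, coloured by outcome, with black bars at the group means. Ndufa8 is above 0 in 5 of 5 sham mice and in 2 of 12 injured mice, and Cox6c is below 0 in 3 of 3 PTE+ mice.

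Genes that serve the complexes without belonging to them were examined from fixed lists. In the comparisons of hemispheres their calls came from the fit without the mouse as a block. Of 45 assembly factors, which build and mature the complexes, 42 or 43 were tested. None was called in either ipsilateral comparison, and 2 were called in contralateral injured against sham (4.05% of all genes) and 2 in contralateral PTE+ against PTE- (2.79%). In each comparison of hemispheres and each test of a hemisphere difference 1 was called, beside 2.71% and 1.19% of all genes in injured and sham mice and 6.5% and 3.09% in the injury and PTE+ effects. These were Cox11 in injured mice, Acad9 in shams (lower) and in the injury effect (higher), and Atpaf2 in the PTE+ effect (higher). In contralateral cortex Sdhaf2, which attaches flavin to Sdha, rose from 56.1 ± 8.46 TPM (SD, n = 5) in sham to 67.4 ± 6.89 (n = 13) in injured mice (0.27, exact permutation p = 0.00549). Ttc19, a complex III assembly factor, fell from 56.2 ± 10.97 to 41.6 ± 7.72 TPM (-0.42, exact permutation p = 0.00934). Ttc19 was also lower in contralateral PTE+ than in PTE- mice (35.4 ± 3.73 against 44.3 ± 7.54 TPM, n = 4 and 9, exact permutation p = 0.0406), and so was Ndufaf2, a complex I assembly factor (28.5 ± 5.64 against 36.7 ± 5.52 TPM, exact permutation p = 0.0322). The 4 PTE+ libraries are among the 13 injured ones, so the comparisons are not separate observations. The smallest limma adjusted p of any gene was 0.978 for injured against sham and 0.603 for PTE+ against PTE-.

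Cox11, which delivers copper to complex IV, was lower in the ipsilateral cortex of injured mice (27.98 ± 6.18 against 33.5 ± 4.99 TPM, n = 12 each, exact sign-flip permutation p = 0.0469). Of 16 genes that replicate or transcribe mitochondrial DNA or handle its RNA, Polg, the mitochondrial DNA polymerase, fell in contralateral injured against sham cortex (43.8 ± 9.86 against 56.6 ± 11.4 TPM, exact permutation p = 0.0416), and Tfam, which packages that DNA and starts its transcription, was lower ipsilaterally in sham mice by limma (16.8 ± 6.32 against 24.8 ± 5.96 TPM, n = 5 each, exact sign-flip permutation p = 0.125). Both were called higher in the injury effect between hemispheres. These were 1, 1 and 2 calls of 16, beside 4.05%, 1.19% and 6.5% of all genes.

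Of 13 genes of the tricarboxylic acid cycle, which feeds complexes I and II, Fh1, the fumarate hydratase, fell in contralateral PTE+ against PTE- cortex (86.5 ± 7.86 against 108 ± 16.01 TPM, exact permutation p = 0.0224), and Cs and Fh1 were called higher in the PTE+ effect between hemispheres. These were 1 and 2 calls of 13, beside 2.79% and 3.09% of all genes. In the 4 comparisons between groups of mice 0 genes of any kind had a limma adjusted p under 0.05. None of 15 tested glycolysis genes and none of 5 or 6 tested regulators of mitochondrial biogenesis was called in the 8 comparisons run. In these 0.573% to 6.5% of all genes were called, so lists this small could hold no call by that share alone.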

How the data were processed

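RNA from ACSA-2-bound cortical astrocytes was sequenced in 37 libraries. The authors trimmed reads with Trim Galore 0.6.4 and quantified them with RSEM 1.2.28 and Bowtie2 2.4.1 on mm10, and they deposited TPM values, 1 table per hemisphere; the submitters' notes also list DESeq2 1.36.0. The annotation release is not given in the sources used here. Since TPM are scaled to 1 fixed sum, the depth of each library is lost and counting error is unknown. Ensembl identifiers were matched to GENCODE symbols and positions of GRCm38 (21933 of 21975), and 99.5% were protein coding. TPM are scaled within each library and not by table, and levels set across hemispheres rest on TPM alone.

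Members and gene lists were chosen with earlier results of these data known. limma 3.58.1 in R 4.3.3 was run with a trend on log2(TPM + 1) over all genes whose mean exceeded 5 TPM in 1 group or more; calls required an unadjusted p under 0.05 and a 1.2-fold difference, with Benjamini-Hochberg adjusted p beside them. A fold on this scale understates the change of low genes. Single members were also tested by two-sided exact permutation over libraries, or sign flips over mice. Named were all mitochondrially encoded members, called members, and a fixed list of core and isoform members; others named were chosen after their values were seen, and 1 listed member is not reported here. Hemispheres pair because they come from the same mouse: after group means were removed, same-mouse libraries had a median r of 0.41 (0.04 to 0.69; 16 of 17 above 0.1; 10235 genes) against -0.11 over 98 pairs of different mice. The fit was tested on simulated data. Other steps used Python 3.11.15 with scipy 1.17.1, pandas 2.3.3 and numpy 2.4.6, and plots matplotlib 3.10.9. Alternatives were another pseudocount (0.1), no TPM filter, median centring, TPM over nuclear genes alone, array weights, all groups in 1 fit, the mouse-name prefix as covariate, the mouse as block, and leaving out single mice.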

Additional observations from a re-analysis of the deposited data

Results flagged for a closer look

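Single libraries lay far from the rest of their group in 20 of 252 tests of a group's highest or lowest value, over 39 named members and 3 summed measures. Independent tests would give about 1 in 20 by chance. These tests were not independent, with 5 of the 20 from mouse 8_10 and 4 from 9_14, so no excess can be read from the count. In ipsilateral PTE+ cortex mouse 8_10 was highest in the mitochondrial share (6.659% of TPM, others 4.354% to 4.735%), mt-Atp6 (10950 TPM), mt-Co1 (8171), mt-Nd1 (4914) and mt-Nd2 (908.4). In the same group mouse 9_19 was lowest in Cox7a2 (270.3 TPM) and Ndufa4 (420.1). In ipsilateral PTE- cortex library 9_14 was highest in Atp5b (2262 TPM) and Uqcrfs1 (515.9) and lowest in Ndufs6 (144.1) and Cox6b2 (listed at 0), while Cox4i1 was highest in 8_9 (2470), Sdhb highest in 9_12 (551.4) and Cox5a lowest in 9_13 (418.5). In contralateral cortex the values were Uqcrfs1 at 311.7 TPM in PTE+ 9_17 and 310.1 in PTE- 9_13, both lowest, Ndufa8 at 529.5 in PTE- 8_9, mt-Nd3 at 4089 in PTE- 8_11, mt-Nd5 at 1238 in sham 9_10 and Cox8b at 5.32 in sham 9_9, each highest.

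By limma, unadjusted, the injury effect was called as different between hemispheres for Ndufs6 (-0.2903), Ndufb8 (-0.3477), Ndufa8 (-0.287), Uqcrq (-0.287) and Cox6b2 (0.328). This was about the share of all genes called there (6.5%). The PTE+ effect was called for Cox6c (-0.4003) and Cox6a2 (-1.094), where 3.09% of all genes were called. All values are on the log2 scale. No adjusted p among them was under 0.05, and Cox6a2 passed the low-value filter only through the group in which it was high.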

How the results depend on the processing

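Counts of called members depended on the weighting of libraries, on centring and on single mice, and the cause was not tested. With array weights, under which 3.73% to 8.58% of all genes were called, the counts were 13 (ipsilateral injured against sham, 0 without weights), 1 (ipsilateral PTE+), 1 (contralateral injured), 10 (contralateral PTE+, 1 without), 2 (hemispheres of injured mice) and 7 (hemispheres of shams). With median centring they were 1 for ipsilateral PTE+ (Ndufa6), 2 for contralateral injured, 27 for the injury effect between hemispheres and 1 for the PTE+ effect between hemispheres. Without the TPM filter contralateral injured and the PTE+ effect between hemispheres each had 1. With the mouse as a replicate block the hemisphere counts were 1 in injured and 3 in sham mice. Mice left out singly were sham or PTE+ mice, and PTE- 9_14 in ipsilateral cortex. No other PTE- mouse was left out. Leaving out single mice gave 0 to 12 calls for ipsilateral injured (12 without sham 9_11), 0 to 1 for ipsilateral PTE+, 0 to 3 for contralateral injured (3 without sham 8_16 or 9_9), 1 to 3 for contralateral PTE+ (3 without 8_17), 0 to 1 and 0 to 2 for the hemispheres of injured and sham mice (1 without 9_17, 2 without 9_11), 1 to 22 for the injury effect between hemispheres and 0 to 6 for the PTE+ effect (6 without 8_10, 0 without 9_17). Cox6b2 stayed called in contralateral PTE+ mice under each refitted alternative, at -0.59 to -0.43, though none of these left out a PTE- mouse. Its injury effect between hemispheres lost its call in 6 of 11. Set medians moved by less than the spread between replicates in all 180 alternatives, but leaving out single mice turned the sign of the mitochondrial median in ipsilateral injured (-0.53 to 0.09), contralateral injured (-0.32 to 0.15), ipsilateral PTE+ (-0.13 to 0.04) and contralateral PTE+ (-0.20 to 0.18) libraries, between sham hemispheres (-0.26 to 0.36) and for the injury effect between hemispheres (-0.46 to 0.18), and that of the nuclear median in ipsilateral PTE+ (-0.04 to 0.10), contralateral PTE+ (-0.05 to 0.08) and the PTE+ effect between hemispheres (-0.06 to 0.13). TPM keep no read depth per library, so what depth limits in each was not assessed.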
